A study of Mus musculus with 12 samples.

Results

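The serum amyloid A family comprised the 4 mouse genes whose symbols in the deposited table were Saa1, Saa2, Saa3 and Saa4, out of 15846 genes, and all 4 were among the 14736 genes that passed a filter on low counts. They were measured by RNA sequencing of 12 livers, in 4 groups of 3 mice: Shp Hep-/- mice on the HFCF diet (KO HFCF), Shp Hep-/- mice on chow (KO chow), WT mice on the HFCF diet (WT HFCF) and WT mice on chow (WT chow). All mice were C57BL/6 and 5 months old. Shp is the product of Nr0b2, a nuclear receptor that acts as a transcriptional corepressor; no source used here says how its deletion was driven or what the letters of HFCF stand for. The comparisons ask how the diet and the loss of Shp change the liver's RNA, alone and together.

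Serum amyloid A proteins are small apolipoproteins of the acute phase response, the change in plasma proteins that follows inflammation or injury. Cytokines such as interleukin 6, interleukin 1 and tumour necrosis factor act on the hepatocyte through STAT3, NF-kB and C/EBP factors to raise their transcription, and the secreted proteins travel mainly on high density lipoprotein (HDL). In the mouse, Saa1 and Saa2 are the main acute phase forms made by hepatocytes, Saa3 is inducible in many tissues and in macrophages, and Saa4 is the form that the liver makes constitutively.

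The 4 genes lie on chromosome 7 of mm10 within 42.3 kb, and each is protein coding with 4 exons in its first annotated transcript. Saa3 (ENSMUSG00000040026) runs from 46711998 to 46715676 on the minus strand, Saa4 (ENSMUSG00000040017) from 46728017 to 46732543 on the minus strand, Saa1 (ENSMUSG00000074115) from 46740501 to 46742980 on the minus strand and Saa2 (ENSMUSG00000057465) from 46751833 to 46754314 on the plus strand. The start sites of Saa1 and Saa2 face away from each other across 8.85 kb.

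**Figure D1:**
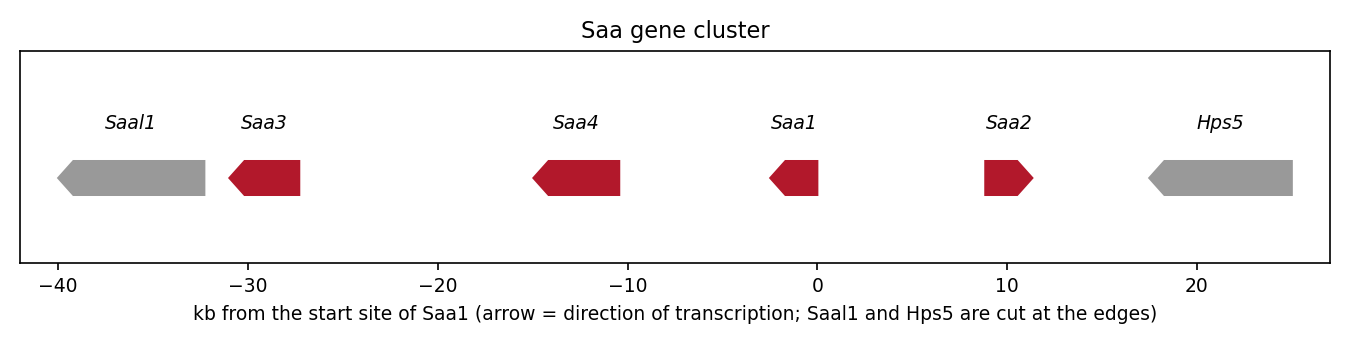
The Saa gene cluster and the nearest part of its flanking genes, drawn to scale in kb from the start site of Saa1; arrows give the direction of transcription. Saa1 and Saa2 are transcribed away from each other, with start sites 8.85 kb apart, and Saa4 and Saa3 follow on the side of Saa1.

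The 250 bases before each start site are shown because Saa1, Saa2 and Saa3 rose in KO livers on HFCF and Saa4 did not pass there. The sequences are RefSeq's for GRCm38.p6, printed 5′ to 3′ on each gene's own strand, and all 4 genes matched by symbol. For Saa1 (chr7:46742981-46743230, minus strand) and Saa2 (chr7:46751583-46751832, plus strand), capitals mark the bases that differ between them.
Saa1 promoter: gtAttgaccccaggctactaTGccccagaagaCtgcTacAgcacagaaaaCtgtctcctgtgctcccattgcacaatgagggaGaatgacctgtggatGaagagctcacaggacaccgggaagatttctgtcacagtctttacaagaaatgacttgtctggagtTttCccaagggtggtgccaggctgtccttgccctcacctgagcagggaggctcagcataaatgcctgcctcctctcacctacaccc
Saa2 promoter: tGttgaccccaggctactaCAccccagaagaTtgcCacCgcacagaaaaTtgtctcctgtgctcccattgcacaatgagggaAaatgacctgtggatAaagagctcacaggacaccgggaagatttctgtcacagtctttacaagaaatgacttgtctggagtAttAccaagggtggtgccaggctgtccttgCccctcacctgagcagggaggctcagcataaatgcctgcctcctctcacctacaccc
Of 249 aligned bases 238 were identical, or 95.6%. The differences lay mostly away from the start: only 2 of the 11 capitals of Saa1 and 3 of the 12 of Saa2 fell in the last 100 bases.

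For Saa3 (chr7:46715677-46715926, minus strand) and Saa4 (chr7:46732604-46732853, minus strand), capitals mark matches to the C/EBP motif TTGCNNAA on either strand.
Saa3 promoter: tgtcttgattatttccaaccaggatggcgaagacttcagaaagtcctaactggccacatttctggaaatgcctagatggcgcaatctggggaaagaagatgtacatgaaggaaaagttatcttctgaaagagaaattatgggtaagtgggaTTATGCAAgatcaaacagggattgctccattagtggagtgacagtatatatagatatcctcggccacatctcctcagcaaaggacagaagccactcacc
Saa4 promoter: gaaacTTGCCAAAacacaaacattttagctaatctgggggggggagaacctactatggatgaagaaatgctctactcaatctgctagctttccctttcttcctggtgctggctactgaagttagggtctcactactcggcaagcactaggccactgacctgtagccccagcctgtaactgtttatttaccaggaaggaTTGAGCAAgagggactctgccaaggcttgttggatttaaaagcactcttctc
These 2 promoters shared 62.4% to 68.0% of aligned bases with each other and with those of Saa1 and Saa2. C/EBP motif matches stood in all 4 promoters: TTGCACAA from -182 to -175 in Saa1 and from -183 to -176 in Saa2, TTATGCAA from -99 to -92 in Saa3, and TTGCCAAA from -245 to -238 and TTGAGCAA from -52 to -45 in Saa4, counted back from -1, the base before RefSeq's start. That start is the one given above for Saa1, Saa2 and Saa3 and lies 60 bases upstream of it for Saa4. TTATGCAA and TTGAGCAA match on the opposite strand. The same motif was found in 9.56% of 32851 RefSeq promoter windows of this length. The NF-kB motif, GGG and TTCC with 3 bases between (4.65% of windows, both strands), the STAT motif TTCNNNGAA (7.02%, both strands) and the TATA box letters TATAAA on the gene's strand (7.59%) had 0 matches in the 4 windows. No other motif overlapped a C/EBP match, and a match or its absence describes only these letters in these windows.

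The libraries held 13967116 to 18324134 counts. Nr0b2, the targeted gene, averaged 0.371 ± 0.15 CPM in KO HFCF livers, 0.778 ± 0.228 CPM in KO chow livers, 50.2 ± 2.96 CPM in WT HFCF livers and 34.3 ± 13.7 CPM in WT chow livers (SD, n = 3 each). CPM is a count relative to library size after TMM scaling. Of 10 hepatocyte markers listed, 9 were in the table, and their summed level was 52653 to 68402 CPM over all 12 livers; Alb was not analysed here. Below, ± after CPM or FPKM is the SD over 3 livers, ± after a log2 fold change is the SE given by edgeR's quasi-likelihood model of the 12 libraries, and a gene passed the test at an adjusted p under 0.05 (Benjamini-Hochberg over all 14736 genes).

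Saa1 and Saa2, the acute phase forms, reached their high levels in the KO HFCF livers. Saa1 stood at 2165, 2308 and 2229 CPM in KO HFCF livers, 266, 198 and 56.2 CPM in KO chow livers, 77.5, 55.6 and 22.5 CPM in WT HFCF livers, and 100.3, 85.3 and 20.1 CPM in WT chow livers. Saa2 stood at 2123, 1984 and 1902 CPM in KO HFCF livers, 110.5, 95.2 and 24.6 CPM in KO chow livers, 47.9, 28.0 and 11.02 CPM in WT HFCF livers, and 24.4, 23.1 and 7.05 CPM in WT chow livers. For both genes the 3 KO HFCF livers lay above the other 9 livers and close to each other, with a coefficient of variation of 3.22% for Saa1 and 5.57% for Saa2. In the other 3 groups the coefficient of variation was 53.4% to 62.2% for Saa1 and 53.1% to 63.7% for Saa2, and the library numbered 3 was the lowest of each of these groups for both genes.

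Saa3 stood at 29.7, 35.2 and 42.3 CPM in KO HFCF livers, 12.6, 12.1 and 16.4 CPM in KO chow livers, 4.61, 5.42 and 3.54 CPM in WT HFCF livers, and 7.08, 3.04 and 3.60 CPM in WT chow livers. Its groups thus formed 3 steps, KO HFCF above KO chow above WT, and the WT diets overlapped. Saa4, the constitutive form, stood at 186, 192 and 151 CPM in KO HFCF livers, 109, 131 and 140 CPM in KO chow livers, 165, 217 and 189 CPM in WT HFCF livers, and 158, 128 and 101 CPM in WT chow livers. It was ordered by diet: the HFCF livers of each genotype lay above the chow livers of the same genotype, and the genotypes overlapped on each diet.

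**Figure D2:**
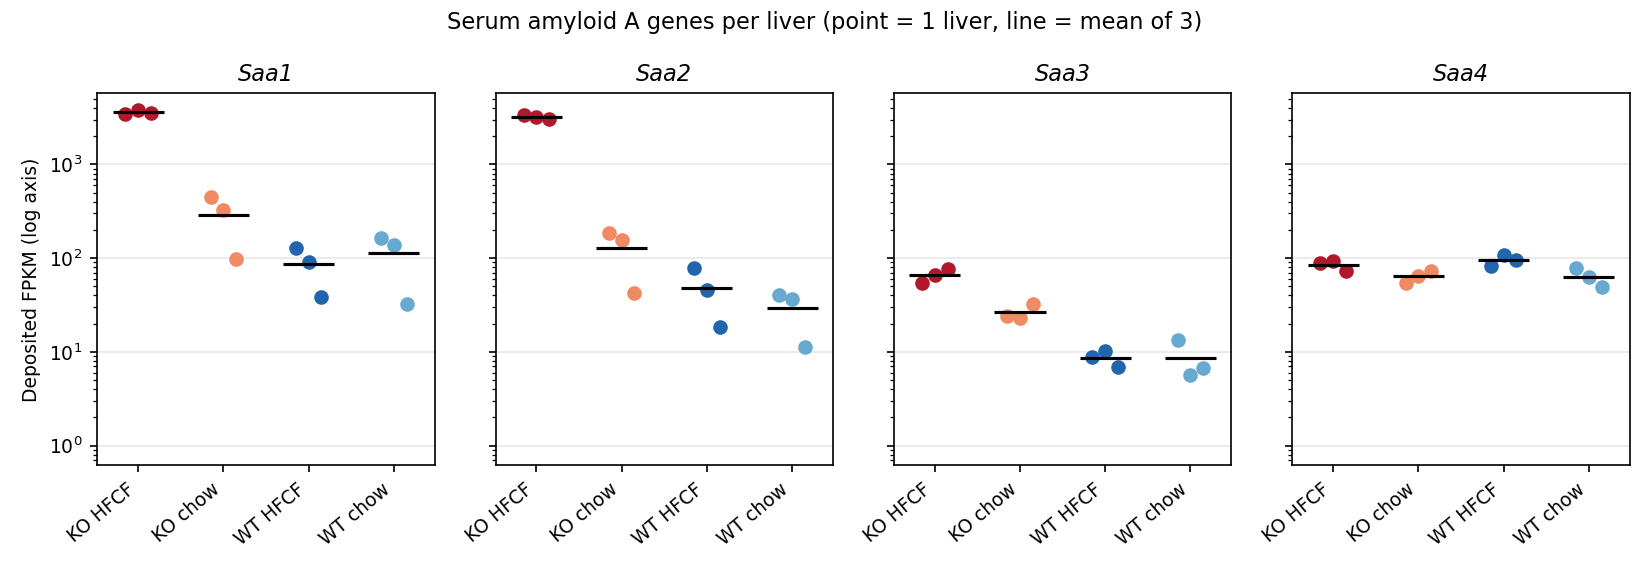
Deposited FPKM of each Saa gene in every liver (points; log axis) with the mean of 3 livers (line), by group. Saa1 and Saa2 average 3593 and 3194 FPKM in KO HFCF livers, above all other livers, while the group means of Saa4 stay between 63.4 and 95.6 FPKM.

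Per length of transcript, the family's order differed between groups. In KO HFCF livers Saa1 averaged 3593 ± 171 FPKM, Saa2 3194 ± 159, Saa4 85.2 ± 11.1 and Saa3 65.5 ± 11.8, and Saa1 and Saa2 ranked 19 to 24 among all 15846 genes of a library by FPKM. In KO chow livers Saa1 averaged 291 ± 178 FPKM, Saa2 127 ± 75.0, Saa4 64.2 ± 8.95 and Saa3 26.5 ± 5.30. In WT HFCF livers Saa4 averaged 95.6 ± 12.4 FPKM and Saa1 86.5 ± 45.9, a difference within their spread, with Saa2 at 48.0 ± 30.5 and Saa3 at 8.61 ± 1.65. In WT chow livers Saa1 averaged 112 ± 70.3 FPKM and Saa4 63.4 ± 14.7, again within the spread, with Saa2 at 29.5 ± 15.7 and Saa3 at 8.54 ± 4.19. The 4 genes together took 0.420% to 0.447% of the counts of each KO HFCF library, 0.0249% to 0.0507% in KO chow, 0.0233% to 0.0305% in WT HFCF and 0.0130% to 0.0290% in WT chow. In these bulk samples, fewer cells of a type and less RNA per cell cannot be told apart.

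In the KO livers, 3 of the 4 family members rose on HFCF against chow, where 1.47% of all genes tested were called higher. Saa2 rose 26.1-fold (log2 4.71 ± 0.60, edgeR adjusted p = 0.000956), Saa1 12.9-fold (3.69 ± 0.61, edgeR adjusted p = 0.00572) and Saa3 2.61-fold (1.39 ± 0.22, edgeR adjusted p = 0.00396). By log2 fold change Saa2 ranked 5 and Saa1 ranked 8 of 14736 genes. Saa4 was 1.40-fold higher (0.48 ± 0.15), which did not pass (edgeR adjusted p = 0.114) but did with DESeq2 (adjusted p = 0.0459). The KO HFCF and KO chow livers did not overlap for any of the 4 genes, as for 13.1% of all genes in the higher direction. The calls of Saa1, Saa2 and Saa3 held without each library in turn.

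In the WT livers 1 of the 4, Saa4, was higher on the same diet, where 7.76% of all genes were called higher. Saa4 was 1.47-fold higher on HFCF than on chow (log2 0.56 ± 0.15, edgeR adjusted p = 0.0295), and its groups did not overlap, as for 15.8% of all genes in the higher direction. That call was lost without WT HFCF replicate 2 (edgeR adjusted p = 0.108), WT chow replicate 2 (0.0707) or WT chow replicate 3 (0.119). The acute phase forms did not pass: Saa1 changed by -0.40 ± 0.57 (95% interval -1.62 to 0.82, edgeR adjusted p = 0.687), Saa2 by 0.68 ± 0.56 (-0.52 to 1.88, edgeR adjusted p = 0.457) and Saa3 by -0.02 ± 0.28 (-0.63 to 0.60, edgeR adjusted p = 0.983) on the log2 scale. The diet effects of Saa1 and Saa2 differed between the genotypes. On the log2 scale the diet effect in KO exceeded that in WT by 4.09 ± 0.82 for Saa1 (95% interval 2.32 to 5.85, edgeR adjusted p = 0.0423) and by 4.03 ± 0.78 for Saa2 (2.34 to 5.71, edgeR adjusted p = 0.0401), where 0.373% of all genes were called in this direction. Both p-values lie near the threshold. The Saa1 call was kept without WT HFCF replicate 1 (edgeR adjusted p = 0.0428) or WT chow replicate 3 (0.0309) and lost without any of the other 10 libraries (0.0537 to 0.106). The Saa2 call was kept without KO chow replicate 2 (edgeR adjusted p = 0.0473), WT HFCF replicate 1 (0.0275), WT HFCF replicate 3 (0.0416) or WT chow replicate 3 (0.0402) and lost without any of the other 8 (0.0661 to 0.103). The difference for Saa3 was 1.40 ± 0.36 (0.63 to 2.17, edgeR adjusted p = 0.0927), which passed with DESeq2 (adjusted p = 0.00564), and that for Saa4 was -0.08 ± 0.22 (-0.55 to 0.39, edgeR adjusted p = 0.926).

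On HFCF, 3 of the 4 members were higher in KO than in WT, where 10.6% of all genes were called higher in KO. Each group enters both a diet and a genotype contrast, so the contrasts are not independent of each other. Saa2 was 68.9-fold higher in KO HFCF than in WT HFCF livers (log2 6.11 ± 0.65, edgeR adjusted p = 3.43e-05), Saa1 43.0-fold (5.43 ± 0.67, edgeR adjusted p = 0.000111) and Saa3 7.92-fold (2.99 ± 0.25, edgeR adjusted p = 4e-06). The KO HFCF livers lay above the WT HFCF livers for these 3 genes, as for 18.5% of all genes. These 3 calls held without each library in turn and under all 9 or 10 other settings run. Saa4 changed by -0.11 ± 0.16 on the log2 scale (95% interval -0.44 to 0.22, edgeR adjusted p = 0.685).

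On chow, 2 of the 4 members were higher in KO, where 9.72% of all genes were called higher. Saa3 was 3.00-fold higher in KO chow than in WT chow livers (log2 1.59 ± 0.26, edgeR adjusted p = 0.0013), and this held without each library in turn. Saa2 was 4.23-fold higher (2.08 ± 0.56, edgeR adjusted p = 0.0241), and its groups were separated narrowly, with 24.6 CPM in the lowest KO chow liver against 24.4 CPM in the highest WT chow liver. Groups that do not overlap, with KO higher, were found for Saa2 and Saa3 and for 19.4% of all genes. The Saa2 call was lost without KO chow replicate 1 (edgeR adjusted p = 0.0835), KO chow replicate 2 (0.0705) or WT chow replicate 3 (0.0929), and with the reads of Saa1 and Saa2 summed (0.0856). Saa1 was 2.53-fold higher (1.34 ± 0.57, edgeR adjusted p = 0.128), which did not pass here but did without KO chow replicate 3 (log2 1.76, edgeR adjusted p = 0.0445), and its groups overlapped. Saa4 changed by -0.03 ± 0.16 on the log2 scale (95% interval -0.36 to 0.31, edgeR adjusted p = 0.926).

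**Figure D3:**
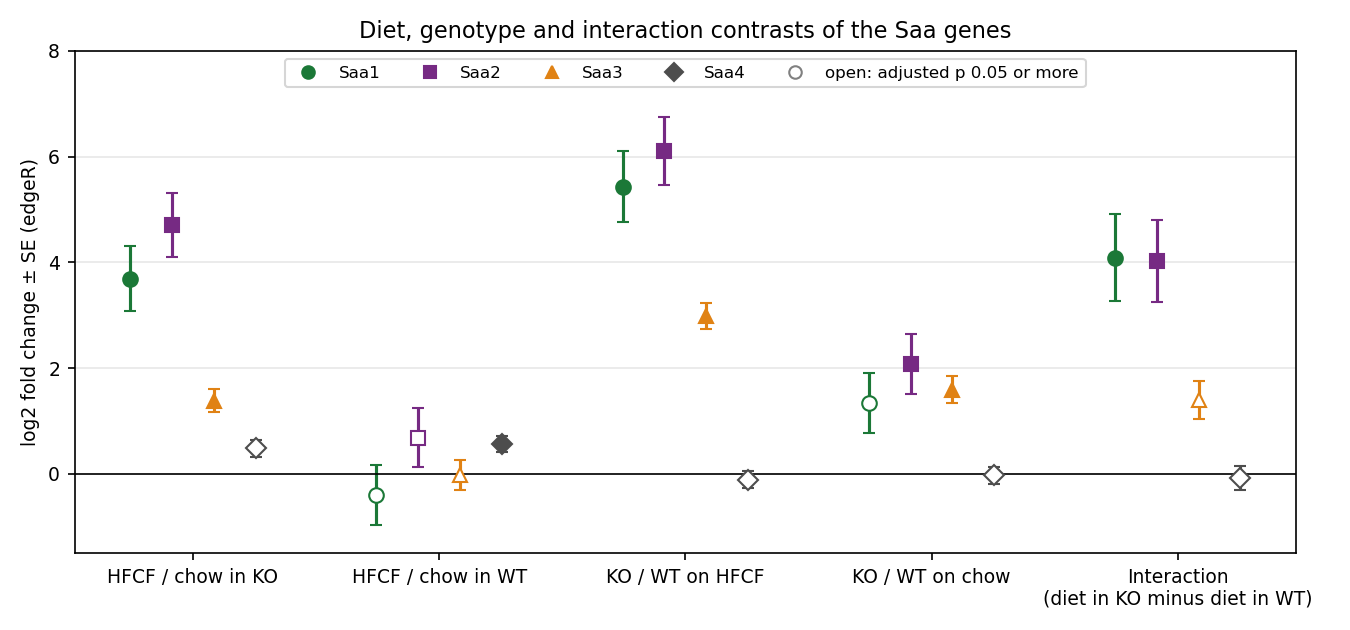
Log2 fold changes of the 4 Saa genes in the 5 contrasts of edgeR's fit (bars: standard error); filled symbols passed at an adjusted p under 0.05. Saa1, Saa2 and Saa3 lie at 1.39 to 6.11 in both contrasts that set KO HFCF livers against a comparison group, while Saa4 passes only for the diet in WT, at 0.56.

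Saa1 and Saa2 differed in how much of their joint signal each supplied. Saa1 supplied 50.5%, 53.8% and 54.0% of the summed Saa1 and Saa2 counts in KO HFCF livers, 70.7%, 67.5% and 69.5% in KO chow livers, 61.8%, 66.5% and 67.1% in WT HFCF livers, and 80.4%, 78.7% and 74.0% in WT chow livers. The share was therefore lower on HFCF than on chow in both genotypes and lower in KO than in WT on both diets, with no overlap in any of these 4 pairs of groups. The difference of HFCF minus chow was -16.5 percentage points in KO and -12.6 points in WT, and that of KO minus WT was -12.4 points on HFCF and -8.48 points on chow. An exact two-sided permutation test gave p = 0.1 for each of the 4 comparisons, the smallest that 3 against 3 livers allow, so none could pass. Counting error of a single share was small where counts were high (exact 95% interval 50.1% to 50.9% for KO HFCF replicate 1) and wider where they were low (69.4% to 78.3% for WT chow replicate 3, with 393 counts); these intervals cover counting error only. The first transcripts of the 2 genes are 94.4% identical over 606 aligned bases, and 13.2% of the 50-base windows of Saa1 and 0 of its 510 windows of 100 bases occur in Saa2. How much of the reads could have come from either gene thus depends on the read length, which no source used here states. The part of this in the share was not tested.

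**Figure D4:**
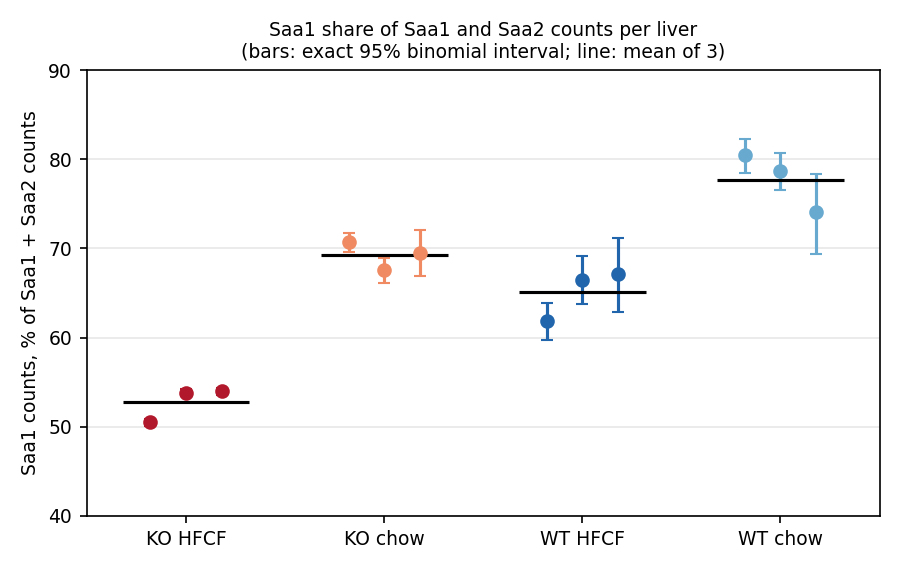
Percent of the summed Saa1 and Saa2 counts that Saa1 supplied in each liver (points with exact 95% binomial intervals, which cover counting error only), by group. The 3 KO HFCF livers lie at 50.5% to 54.0%, below the other 9 livers at 61.8% to 80.4%.

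The rest of the acute phase programme was described by lists chosen with earlier results of these data known. Of 27 other acute phase plasma proteins tested, 7 rose and 0 fell in KO on HFCF against chow, with a median log2 fold change of 0.31 against 0.00 over all genes. The shares of all genes called lower, beside those called higher given above, were 1.18% for the diet in KO, 5.90% for the diet in WT, 8.52% for KO against WT on HFCF and 5.82% on chow. Orm2, an acid glycoprotein, averaged 155 ± 5.07 CPM in KO HFCF livers and 27.3 ± 6.61 CPM in KO chow livers (log2 2.51 ± 0.38, edgeR adjusted p = 0.00298). Lcn2, which binds bacterial siderophores, stood at 154, 94.5 and 162 CPM in KO HFCF livers, against 14.3, 31.0 and 7.69 CPM in those of KO mice on chow (2.97 ± 0.51, edgeR adjusted p = 0.00669). Hpx, which binds heme, rose by 0.86 ± 0.13 (edgeR adjusted p = 0.00396) and Il1rn, the antagonist of the interleukin 1 receptor, by 1.28 ± 0.21 (edgeR adjusted p = 0.00572). In KO HFCF against WT HFCF livers 19 rose and 0 fell (median 0.75 against 0.02 over all genes), among them Itih3 (2.01 ± 0.20, edgeR adjusted p = 1.82e-05), Orm1 (1.91 ± 0.17, edgeR adjusted p = 7.39e-06) and complement C3 (1.48 ± 0.14, edgeR adjusted p = 1.49e-05).

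In WT on HFCF against chow 1 rose, Orm3, by 2.82 ± 0.51 (edgeR adjusted p = 0.00309), and 4 fell, among them the lipopolysaccharide-binding protein Lbp, by 0.78 ± 0.13 (edgeR adjusted p = 0.00142), with a median of -0.27 over the 27. In KO chow against WT chow livers 5 rose and 2 fell, with Orm2 at 2.22 ± 0.44 (edgeR adjusted p = 0.00509) and Il1rn at 1.72 ± 0.26 (edgeR adjusted p = 0.000836). For the difference between the diet effects 5 passed, all in the direction of Saa1 and Saa2. Of all genes, 0.373% were called in this direction and 0.421% in the other. With 1 library left out the counts that rose ranged from 5 to 11 for the diet in KO, 15 to 20 for genotype on HFCF, 4 to 8 for genotype on chow and 0 to 9 for the difference; in the last, 0 passed without any of the 3 KO HFCF libraries, KO chow replicates 1 or 3, or WT chow replicates 1 or 2. Of 13 negative acute phase proteins, which the response lowers, 0 passed for the diet in KO (4 at an unadjusted p under 0.05, 2 in each direction; 2 rose with DESeq2 and 0 passed with limma voom). In KO HFCF against WT HFCF livers 4 of them rose and 2 fell (2 to 5 and 2 with 1 library left out; 2 rose without KO HFCF replicate 3). Transferrin, Trf, which carries iron, was 0.65 ± 0.09 higher on the log2 scale (edgeR adjusted p = 0.000204), while Ttr, the thyroid hormone carrier transthyretin, changed by -0.57 ± 0.10 (edgeR adjusted p = 0.00105).

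**Figure D5:**
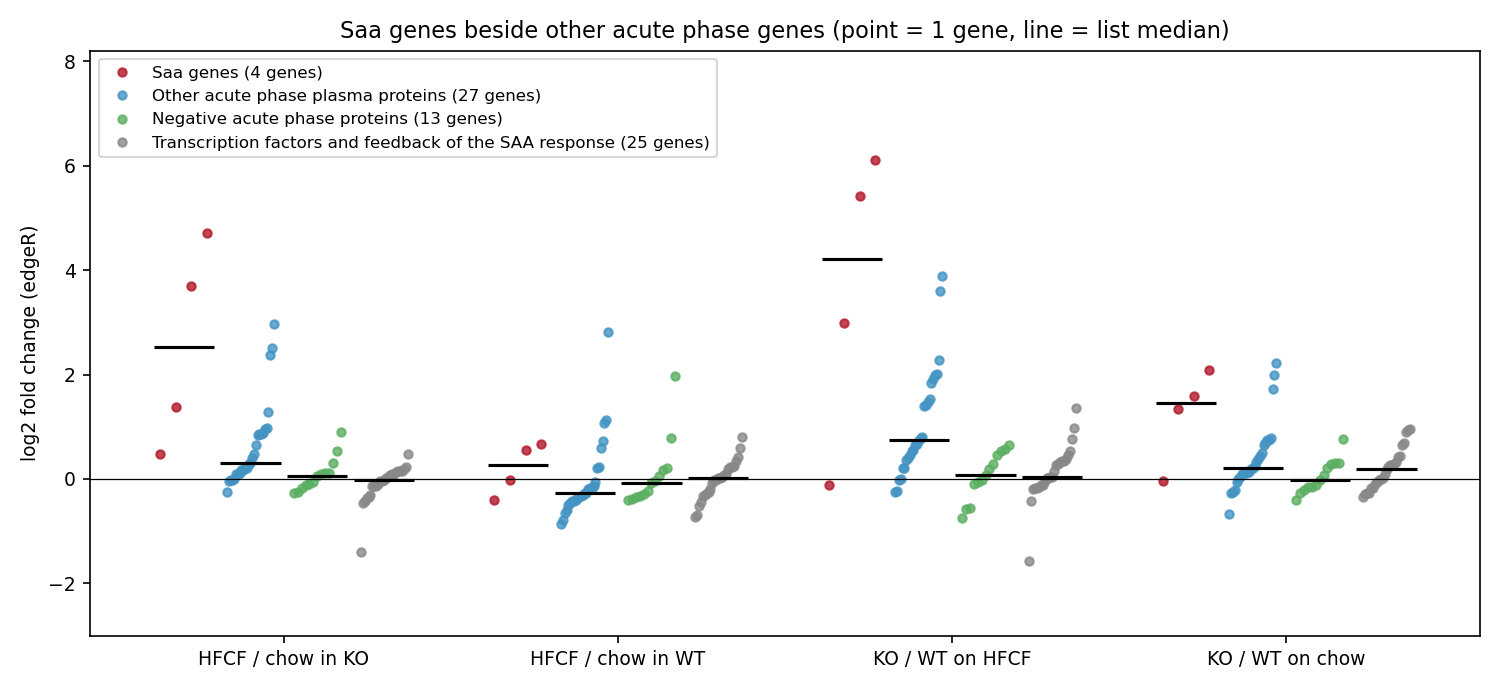
Log2 fold changes by edgeR's fit in 4 contrasts (points: genes; lines: list medians) for the 4 Saa genes, 27 other acute phase genes, 13 negative acute phase genes and 25 transcription factors and feedback genes of the response. Saa2 and Saa1 lie above every other gene plotted for HFCF against chow in KO (4.71 and 3.69) and for KO against WT on HFCF (6.11 and 5.43).

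Of the cytokines that induce the family, 7 of 14 listed were in the table and Il6, Osm, Lif, Il22, Il17a, Il11 and Ifng were not analysed here. For the diet in KO 0 of the 7 passed with edgeR, DESeq2 or limma voom, and 1 had an unadjusted edgeR p under 0.05. Tnf, tumour necrosis factor, stood at 2.33, 2.59 and 1.46 CPM in KO HFCF livers, 1.83, 0.483 and 1.58 CPM in KO chow livers, 0.739, 0.626 and 0.258 CPM in WT HFCF livers, and 0.215, 0.0708 and 0.207 CPM in WT chow livers. Its KO livers lay above its WT livers on each diet (log2 1.93 ± 0.45, edgeR adjusted p = 0.00909 on HFCF and 2.95 ± 0.62, edgeR adjusted p = 0.00709 on chow), and its KO diets overlapped. These levels rest on few reads, so their precision is low. Of the 7 cytokines, 2 rose and 1 fell in KO on HFCF, against 10.6% and 8.52% of all genes. On chow 2 rose and 0 fell, against 9.72% and 5.82%. Besides Tnf these were Il33 (0.96 ± 0.26, edgeR adjusted p = 0.0185) and Ctf1 (-0.78 ± 0.22, edgeR adjusted p = 0.021) on HFCF, and Il1b (1.19 ± 0.38, edgeR adjusted p = 0.048) on chow. Of the 12 fits with 1 library left out, 3 lost the Il33 call, 3 the Ctf1 call and 9 the Il1b call.

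Of 15 receptors and adaptors that carry these signals, 8 were higher in KO on HFCF and 7 on chow, and 0 passed for the diet in KO with edgeR, DESeq2 or limma voom (3 at an unadjusted edgeR p under 0.05). Of all genes, 10.6%, 9.72% and 1.47% were called higher in these contrasts. Il22ra1, a receptor chain for interleukin 22, was 1.84 ± 0.35 higher on the log2 scale in KO than in WT on HFCF (edgeR adjusted p = 0.00238) and 1.60 ± 0.29 higher on chow (edgeR adjusted p = 0.00297). Tlr2, a pattern receptor that also binds serum amyloid A, was 1.15 ± 0.25 higher on HFCF (edgeR adjusted p = 0.00601) and 1.18 ± 0.27 higher on chow (edgeR adjusted p = 0.0103). With 1 library left out these counts ranged from 4 to 8 on HFCF and 3 to 7 on chow, with 4 without each KO HFCF library and 3 without WT chow replicate 2.

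Of 25 transcription factors and feedback genes of the response, 6 rose and 1 fell in KO on HFCF and 0 passed for the diet in KO with edgeR, DESeq2 or limma voom (4 at an unadjusted edgeR p under 0.05). Of all genes, 10.6% rose and 8.52% fell in KO on HFCF, and 1.47% rose and 1.18% fell for the diet in KO. In KO on chow 3 rose and 0 fell, against 9.72% and 5.82% of all genes. For the diet in WT 0 rose and 3 fell, against 7.76% and 5.90%. Stat3, the factor downstream of interleukin 6, averaged 150.5 ± 3.90 CPM in KO HFCF livers, 143 ± 35.5 CPM in KO chow livers, 88.0 ± 3.96 CPM in WT HFCF livers and 126 ± 26.3 CPM in WT chow livers. It was 0.77 ± 0.16 higher in KO than in WT on HFCF on the log2 scale (edgeR adjusted p = 0.00369). Nfkb1, which encodes an NF-kB subunit, was 0.33 ± 0.07 higher (edgeR adjusted p = 0.00583), and Tnfaip3, an inhibitor of NF-kB signalling, 0.98 ± 0.23 higher (edgeR adjusted p = 0.00929). With 1 library left out, 4 to 7 rose and 0 or 1 fell in KO on HFCF. On chow Tnfaip3 was 0.96 ± 0.23 higher in KO (edgeR adjusted p = 0.0119) and Nfkb1 0.26 ± 0.07 higher (edgeR adjusted p = 0.0258). Stat3 changed by -0.51 ± 0.16 on HFCF against chow in WT (edgeR adjusted p = 0.0449). Of the 12 fits with 1 library left out, 1 lost this Tnfaip3 call, 6 this Nfkb1 call and 8 this Stat3 call.

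On the side of the proteins' receptors and carriers, Scarb1, the HDL receptor that also takes up serum amyloid A, averaged 190 ± 13.7 CPM in KO HFCF livers, 129 ± 11.6 CPM in KO chow livers, 108 ± 10.1 CPM in WT HFCF livers and 84.7 ± 2.10 CPM in WT chow livers. It rose in KO on HFCF against chow (log2 0.56 ± 0.09, edgeR adjusted p = 0.0038), and 1 of 8 listed receptors passed there with edgeR and limma voom, against 2 with DESeq2. Cd36, another scavenger receptor that binds the proteins, averaged 104 ± 15.1 CPM in KO HFCF livers and 460 ± 143 CPM in WT HFCF livers (-2.15 ± 0.17 on the log2 scale, edgeR adjusted p = 3.19e-06). It was also lower in KO than in WT on chow (-1.21 ± 0.17, edgeR adjusted p = 0.000504), and it rose on HFCF in WT (1.47 ± 0.17, edgeR adjusted p = 0.000126). Of 12 HDL partners, 3 rose and 1 fell for the diet in KO (2 to 4 and 0 to 2 with 1 library left out), against 1.47% and 1.18% of all genes. For the diet in WT 4 rose and 2 fell, against 7.76% and 5.90% of all genes. The 3 that rose in KO also rose in WT: Abca1 (0.61 ± 0.09, edgeR adjusted p = 0.000679), Abcg1 (0.65 ± 0.14, edgeR adjusted p = 0.00717) and Scarb1 (0.35 ± 0.09, edgeR adjusted p = 0.02). Of the 12 fits with 1 library left out, 3 lost the Scarb1 call in WT. Apoa1, the main protein of HDL, averaged 8377 ± 840 CPM in KO HFCF livers, 7791 ± 696 CPM in KO chow livers, 6856 ± 1407 CPM in WT HFCF livers and 8685 ± 968 CPM in WT chow livers, values that overlap between groups.

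Of 8 genes beside the cluster that were tested, 0 passed for the diet in KO with edgeR, DESeq2 or limma voom, and 0 had an unadjusted edgeR p under 0.05, with a median log2 fold change of 0.11; 1.47% of all genes were called higher there. In KO against WT, 2 rose on HFCF and 1 on chow, against 10.6% and 9.72% of all genes; with 1 library left out these counts were 0 to 2, with 0 without KO HFCF replicate 1, and 0 to 1. In KO HFCF, KO chow, WT HFCF and WT chow livers Saal1, next to Saa3, averaged 5.89 ± 0.21, 5.23 ± 0.673, 4.93 ± 0.899 and 5.36 ± 0.48 CPM. Hps5, beyond Saa2, averaged 31.3 ± 3.48, 28.5 ± 2.26, 24.4 ± 2.54 and 22.1 ± 0.948 CPM in the same order of groups.

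Across the 12 libraries, the genes whose log2 CPM was most like that of Saa1 among 13346 genes included Orm1 (Pearson r = 0.959), Lcn2 (0.951), Hpx (0.947), Orm2 (0.942) and Slc24a6 (0.937). For Saa2 they were Lcn2 (r = 0.971), Cpb2 (0.969), Orm2 (0.965), Prg4 (0.956), Cpd (0.952) and Orm1 (0.951). For Saa3 they were Orm1 (r = 0.958), Zbp1 (0.953), Srprb (0.949), Appl1 (0.949), Sh3kbp1 (0.948) and Psmb8 (0.948). The Srprb row is ENSMUSG00000090639, 1 of 2 genes deposited under this symbol. It overlaps Trf on the same strand, so its reads cannot be told from those of Trf. Orm1 was thus on all 3 lists. For Saa4 they were other genes, led by Gda (r = 0.923) and Asah2 (0.921). Within the family r was 0.989 for Saa1 with Saa2, 0.891 and 0.897 for these with Saa3, and 0.189 to 0.313 for Saa4 with the others. The libraries share 4 groups, with KO HFCF apart, so these values describe likeness over groups as much as over livers.

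Markers of some other cells moved with the genotype too. In KO HFCF, KO chow, WT HFCF and WT chow livers the 8 Kupffer cell markers, of resident liver macrophages, summed to 919 to 946, 780 to 791, 412 to 616 and 488 to 542 CPM. In KO HFCF against WT HFCF livers 7 of the 8 rose (6 to 8 with 1 library left out), and for the diet in KO 2 rose (1 to 4). Of all genes, 10.6% and 1.47% were called higher in these contrasts. The 13 macrophage and monocyte markers summed to 454 to 488 CPM in KO HFCF, 405 to 435 CPM in KO chow, 264 to 442 CPM in WT HFCF and 286 to 319 CPM in WT chow livers. In KO against WT 6 of the 13 rose on HFCF and 10 on chow, against 10.6% and 9.72% of all genes. For the diet 4 rose in WT (1 with limma voom) and 1 in KO, against 7.76% and 1.47%. The diet effect on Gpnmb was lower in KO than in WT (-4.99 ± 0.84, edgeR adjusted p = 0.0341). Of the 12 fits with 1 library left out, 7 lost that call. Of 9 T, NK and B cell markers in the table, 7 were tested. These 7 summed to 61.5 to 73.9 CPM in KO HFCF, 95.4 to 128 CPM in KO chow, 2.83 to 4.09 CPM in WT HFCF and 2.69 to 4.70 CPM in WT chow livers. Most of that sum in KO livers was Igj, the J chain of immunoglobulins that plasma cells make, at 58.4 ± 6.10 CPM in KO HFCF, 101 ± 14.4 CPM in KO chow, 0.707 ± 0.197 CPM in WT HFCF and 1.17 ± 0.234 CPM in WT chow livers. Of 8 adipocyte markers listed, 4 were in the table, Cfd, Car3, Cidec and Fabp4. Adipoq, Plin1, Lep and Retn were not analysed here. The 4 in the table summed to 369 to 516 CPM in KO HFCF, 188 to 572 CPM in KO chow, 4339 to 5373 CPM in WT HFCF and 802 to 1182 CPM in WT chow livers. Whether the RNA of these genes came from adipocytes was not tested. Of these 4, 3 fell in KO HFCF against WT HFCF livers, where 8.52% of all genes were called lower. On HFCF in WT all 4 rose, where 7.76% of all genes were called higher (3 or 4 in both contrasts with 1 library left out). Cfd, which encodes complement factor D, changed by -7.65 ± 0.40 on the log2 scale in KO HFCF against WT HFCF livers (edgeR adjusted p = 4.46e-08). Of 6 stellate cell markers 4 rose on HFCF in WT (2 or 3 with 1 library left out, with 2 without WT HFCF or WT chow replicates 1 or 2) and 3 were higher in KO on chow. Of all genes, 7.76% and 9.72% were called higher in these contrasts. For the diet in KO and for the genotype on HFCF 0 of the 6 passed with edgeR, DESeq2 or limma voom, with 1 and 0 at an unadjusted edgeR p under 0.05. Of the 9 hepatocyte markers 5 fell on HFCF in WT (2 to 6 with 1 library left out, with 3 without WT HFCF replicate 1 or WT chow replicate 1 and 2 without WT chow replicate 2). Of all genes, 5.90% were called lower there. For the diet in KO 0 of the 9 passed with edgeR (3 at an unadjusted p under 0.05), and 1 rose with DESeq2 and with limma voom. Of 13 neutrophil markers listed, 4 were in the table. The 3 that were tested summed to 5.10 to 6.47 CPM in KO HFCF, 4.93 to 6.69 CPM in KO chow, 2.06 to 3.70 CPM in WT HFCF and 2.62 to 3.36 CPM in WT chow livers. In KO against WT 1 rose on HFCF, S100a9 (1.51 ± 0.30, edgeR adjusted p = 0.00317), and 1 on chow, Csf3r (0.998 ± 0.234, edgeR adjusted p = 0.0122). Of all genes, 10.6% and 9.72% were called higher there. These sums rest on few reads. Of 6 endothelial markers, 1 rose and 1 fell in KO on HFCF and 0 passed on chow with edgeR. Of 5 biliary markers tested, 0 passed for the genotype on HFCF and 1 rose in KO on chow. The fall of the endothelial marker Lyve1 and the rise of the biliary marker Spp1 were lost without some single libraries. No listed marker that was in the table was at 0 in a whole group. The part of these cells in the levels of the Saa genes was not tested.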

How the data were processed

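Mouse liver RNA was depleted of ribosomal RNA and made into stranded libraries, per the labels' protocols. The authors deposited whole-number counts for each Ensembl gene, and FPKM values that equal each count divided by the deposited gene length and the library total (median ratio 0.9992 to 0.9994). Reads were placed on mm10, per the submitters' processing notes; aligner, counter, strand setting and read length are not given in the sources used here. Deposited starts count from 0 (78.3% of 15063 genes matched the annotation at the start plus 1), so printed starts are 1 higher. Every deposited gene reached a count of 10 in at least 1 library.

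Groups, replicate numbers and columns came from the labels, with 3 mice per group per the series' design text. Within groups, libraries differed by more than sampling noise (chi-square per degree of freedom 11.2 to 34.4). filterByExpr (minimum count 10, minimum total 15) kept 14736 genes. Counts were fitted with edgeR 4.0.16 in R 4.3.3 (TMM, glmQLFit and glmQLFTest, 4 group means, 5 contrasts), with Benjamini-Hochberg adjustment over all tested genes and a threshold of 0.05. Libraries held 13967116 to 18324134 counts, so levels near 1 CPM rest on few reads. FPKM served to compare levels between genes, to plot the levels per liver and to repeat the share of Saa1. It did not enter edgeR's fit. The share of Saa1 was tested by exact two-sided permutation. Likeness was Pearson's r of log2 CPM (prior count 2) over genes averaging 1 CPM or more.

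From each of 17 lists the rule for named genes took, per contrast, at most 4 members in order of adjusted p, and 6 genes most like each member, leaving out provisional symbols; of these a part is printed, 1 gene like Saa1 is not reported here, and Apoa1, Saal1, Hps5 and, in contrasts outside the rule, some list members were chosen after their values were seen. The members and lists were chosen with earlier results of these data known. 4 list symbols were matched by an older name (Selenos as H47, Adgre1 as Emr1, Chil3 as Chi3l3, Jchain as Igj). Promoters are RefSeq's; alignments used Biopython 1.88, and figures matplotlib 3.10.9. The pipeline was tested on simulated counts.

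Alternatives were other scalings (RLE, upper quartile), other filters (none, or at least 1 CPM in 6 libraries), the replicate number as a block, 1 surrogate variable by sva 3.50.0, other tools (DESeq2 1.42.0 and voom in limma 3.58.1), the compared groups alone, Saa1 and Saa2 counts summed, and leaving out each library.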

Additional observations from a re-analysis of the deposited data

Results flagged for a closer look

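The diet effect on Saa1 differed between the genotypes by a test of the difference itself: on the log2 scale it was 4.09 higher in KO than in WT (SE 0.82, edgeR adjusted p = 0.0423), with 3.69 in KO and -0.40 in WT. The same test gave 4.03 for Saa2 (SE 0.78, edgeR adjusted p = 0.0401), with 4.71 in KO and 0.68 in WT. Each liver of KO HFCF lay above each liver of KO chow for both genes, and the WT groups overlapped. Both values lie near the threshold and were lost without most single libraries, as given beside them above.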

How the results depend on the processing

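Saa1, Saa2 and Saa3 passed for the diet in KO and for the genotype on HFCF, and Saa3 for the genotype on chow, in every setting and without each library. Other calls moved. DESeq2 added Saa4 for the diet in KO (log2 0.48, adjusted p = 0.0459) and Saa3 for the interaction (1.39, adjusted p = 0.00564). With limma voom Saa1 did not pass for the interaction (4.23, limma adjusted p = 0.0515) and Saa3 for the diet in WT was 0.062 in place of -0.016. With the compared groups alone Saa4 did not pass for the diet in WT (0.57, edgeR adjusted p = 0.0538). With Saa1 and Saa2 counts summed, the joint change was -0.10 for the diet in WT, against 0.68 for Saa2 alone, and 1.53 for the genotype on chow (edgeR adjusted p = 0.0856). Genes called for the diet in KO numbered 390, against 893 with 1 surrogate variable, 656 with DESeq2 and 603 with the compared groups alone; for the interaction 117, against 282 with the surrogate variable and 344 with DESeq2. The cause of these changes was not tested.

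Deviations of same-numbered libraries of different groups correlated at -0.148 to 0.167. Between the WT diets they did so at 0.081, 0.167 and 0.108, each library best with its own number, a hint from the data and not the design; in no contrast were all 3 over 0.1, so the numbers were not taken to pair the samples. With the replicate number as a block, Saa1 passed for the genotype on chow (1.34, edgeR adjusted p = 0.0277), the interaction was 4.41 for Saa1 and 4.40 for Saa2 (edgeR adjusted p = 0.00379 each), with 386 genes called in the KO diet contrast and 97 in the interaction.

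With 1 library left out, the genes called ranged from 157 to 776 for the diet in KO, 1100 to 2264 for the diet in WT, 1152 to 2788 for the genotype on chow and 11 to 136 for the interaction. The KO diet count was 157 to 254 without KO HFCF replicates 1 or 2 or KO chow replicates 1 or 2, and 776 without WT HFCF replicate 1. On the log2 scale Saa3 ranged from -0.224 to 0.458 and Saa4 from 0.41 to 0.751 for the diet in WT. For the genotype on chow Saa1 ranged from 0.888 to 1.759, Saa2 from 1.693 to 2.501 and Saa4 from -0.18 to 0.137. For the interaction Saa1 ranged from 3.667 to 4.537, Saa2 from 3.605 to 4.604 and Saa4 from -0.276 to 0.069.

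Single genes of the lists were followed through the other settings only where they passed with edgeR and were among at most 4 taken per list and contrast. None of these changed direction. The other list genes entered only the counts of calls with DESeq2, with limma voom and with each library left out. Low counts limit Tnf and Saa3 in WT livers, and 3 livers a group limit the share of Saa1.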
